A study of Mus musculus with 8 samples.

Results

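The genes of polyamine metabolism were followed in RNA of the caput epididymis, the proximal stretch of the duct in which sperm mature, from Nell2-knockout (Nell2-KO, Nell2-/-) and wild-type (WT) mice. The 10 genes Odc1, Amd1, Srm, Sms, Oaz1, Oaz2, Azin1, Sat1, Smox and Paox were taken by exact symbol from a deposited table of 24059 genes, in which all 10 were present. The tissue came from C57BL/6N animals 14 weeks of age, with 4 libraries from Nell2-KO and 4 from WT. Nell2 encodes a secreted glycoprotein of testicular germ cells that reaches the epididymis through the lumen, and the labels do not say in which cells or by which allele it was removed. They number the replicates and do not say whether each came from its own animal, and p-values therefore speak only for the variation among these libraries, which may be technical.

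Polyamines (putrescine, spermidine and spermine) are small cations that bind nucleic acids and are needed for growth and for translation, and they are abundant in secretions of the male tract. Ornithine decarboxylase (Odc1) makes putrescine from ornithine, S-adenosylmethionine decarboxylase (Amd1) provides the aminopropyl donor, and spermidine synthase (Srm) and spermine synthase (Sms) extend the chain. Antizymes (Oaz1, Oaz2) are made by a ribosomal frameshift when polyamines are plentiful, bind ornithine decarboxylase and send it to the proteasome, while the antizyme inhibitor (Azin1), a relative of the enzyme without its activity, binds antizyme and frees the enzyme. Sat1 acetylates polyamines for export or breakdown, Paox oxidises the acetylated forms, and Smox oxidises spermine directly.

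How far 36-base reads can be given to these genes sets what the counts hold. In GENCODE M21 transcripts of mm10, 91.0% of the 36-base windows of the longest Amd1 transcript, and 100% of those in its coding part, also occurred in transcripts of other genes on either strand. Amd1 (ENSMUSG00000075232.5, chromosome 10, 40287458 to 40302186, minus strand) shared 2849 windows with Amd2 (ENSMUSG00000063953.3, chromosome 10, 35708675 to 35711892, minus strand), a second S-adenosylmethionine decarboxylase gene. Their coding sequences of 1002 bases each differed at 1 base. The first 36 coding bases of both genes are shown because a read from them fits either gene, and coding bases 778 to 813 because they hold the 1 difference, in capitals. Positions are counted from 1 at the start codon.
Amd1, coding bases 1 to 36: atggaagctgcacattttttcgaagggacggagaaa
Amd2, coding bases 1 to 36: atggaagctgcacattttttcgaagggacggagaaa
Amd1, coding bases 778 to 813: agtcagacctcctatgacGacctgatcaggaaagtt
Amd2, coding bases 778 to 813: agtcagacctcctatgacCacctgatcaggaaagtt

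Amd1 and Amd2 were both listed at 0 reads in all 8 libraries. With 3 reads as the most that a zero count allows, the upper limit was 0.211 CPM for the pooled Nell2-KO libraries and 0.339 CPM for the pooled WT libraries (CPM is the count relative to the library's TMM-scaled total). The sources used here do not say how reads that fit several places were treated, and the part of that in these zeros was not tested. Amd1 is therefore not described further.

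The shared share was 78.9% of coding windows for Odc1, most often with the processed pseudogene Gm7993, and 49.1% of the whole transcript. It was 100% of coding windows for Sms (with Sms-ps), 89.0% for Oaz1 (with Oaz1-ps), 87.0% for Paox (with Gm19680), 55.6% for Oaz2 (with Oaz2-ps), 33.9% for Sat1 and 10.9% for Srm. Azin1 and Smox shared 0% of theirs. Of the whole Azin1 transcript 6.72% was shared, 324 of 325 windows with the antisense gene Gm49077, and since the strand setting of the counting is not given, reads of the 2 genes cannot be told apart there. The gene of Paox also overlaps an antisense gene, Echs1, but 1287 of its 1470 shared windows were shared with Gm19680. Differences between genotypes compare the same gene, while levels between genes are uncertain where much sequence is shared.

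**Figure D1:**
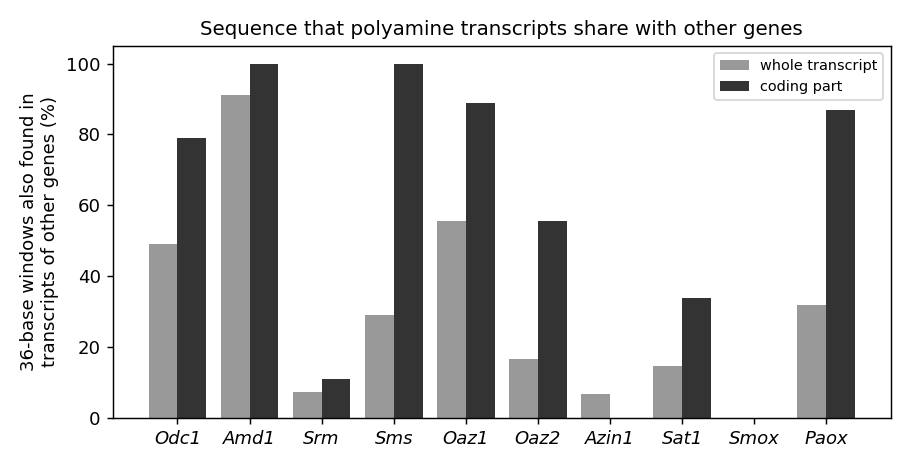
Percentage of 36-base windows of each polyamine gene's longest coding transcript (GENCODE M21, mm10) that also occur in transcripts of other genes, for the whole transcript and for its coding part. The coding part of Amd1 and Sms is shared throughout (100%), that of Azin1 and Smox not at all (0%).

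Library totals ran from 801112 to 6256204 counts in Nell2-KO and lay between 2073811 and 2517387 counts in WT. Nell2-KO replicate 1 had the lowest total and stood apart: its counts in genes, as a share of the library total behind the authors' RPKM, were 0.496 times the WT average, and those of the other 3 Nell2-KO libraries 1.02 to 1.03 times. In WT, replicate 2 stood apart by Malat1, a nuclear RNA, at 7162 CPM against 985.2 to 1130 CPM in the other 3. Nell2 itself had 0 reads in every library of both genotypes and does not check the labels. Of the 7 markers of principal cells, the main epithelial type, 3 rose and 2 fell, against 6.24% and 8.71% of all genes tested. The 7 summed to 97400 to 122000 CPM in Nell2-KO and 95000 to 106000 CPM in WT. Most of these sums was Gpx5, which was not called, with means of 83500 CPM in Nell2-KO and 69400 CPM in WT. The sums therefore say little of the other markers. Lymphocyte markers (up to 2.91 CPM in Nell2-KO and 3.43 CPM in WT) were near 0. So were red cell markers (up to 1.83 CPM in Nell2-KO and 2.45 CPM in WT).

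The clearest change among the polyamine genes was in Azin1, which fell to 0.586 of the WT level in Nell2-KO, a drop of 41.4% (95% interval of the fold 0.484 to 0.71). Levels of Azin1 were 169, 150, 159 and 183 CPM in Nell2-KO replicates 1 to 4, against 265, 307, 285 and 272 CPM in WT replicates 1 to 4. All 4 Nell2-KO libraries lay below all 4 WT libraries. In bulk RNA such as this, fewer cells of a type and less RNA per cell cannot be told apart. The means were 165 ± 14.3 CPM in Nell2-KO and 282 ± 18.0 CPM in WT (SD, n = 4 each), from 2387 reads in Nell2-KO and 2487 in WT. The log2 fold change was -0.77 ± 0.13 (SE), with an adjusted p of 0.0013 by edgeR's quasi-likelihood test with Benjamini-Hochberg adjustment over 11062 genes. Without Nell2-KO replicate 1 it was -0.76 ± 0.10 (edgeR adjusted p = 3.45e-05), and over all single libraries left out the adjusted p was at most 0.00819. The call ended in limma on log2(RPKM + 1) without scaling between libraries (-0.95, adjusted p = 0.111).

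Azin1 (ENSMUSG00000037458.15) lies on chromosome 15 of mm10 at 38487427 to 38519266, on the minus strand, 56.6 Mb from Nell2 on the same chromosome. Its fall was smaller than that of most genes called lower, whose median log2 fold change was -1.22. Of those 964 genes, 745 fell by more than Azin1 did.

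Several cell types' markers also moved with genotype. The counts of markers called stand beside 8.71% of all genes tested called lower and 6.24% called higher. All 10 markers of the initial segment, the most proximal part of the caput, fell, and their sum was 393 to 582 CPM in Nell2-KO and 34400 to 42900 CPM in WT. Basal cell markers fell for 4 of 6, with sums of 304 to 365 CPM in Nell2-KO and 510 to 546 CPM in WT. Endothelial markers fell for 3 of 6, with sums of 43.1 to 67.6 CPM in Nell2-KO and 90.3 to 125 CPM in WT. Clear cell markers rose for 3 of 5 tested, with sums of 517 to 772 CPM in Nell2-KO and 396 to 454 CPM in WT. Of 6 smooth muscle markers 5 were not called and Actg2 fell, to a mean of 24.4 CPM in Nell2-KO against 1020 CPM in WT. Their sums were 642 to 836 CPM in Nell2-KO and 1510 to 1800 CPM in WT, a difference that Actg2 made. The median log2 fold change of these 6 was 0.08. Of 6 fibroblast markers Dcn rose, to a mean of 401 CPM in Nell2-KO against 275 CPM in WT. Pdgfra fell, to 121 CPM in Nell2-KO against 517 CPM in WT. The 6 summed to 665 to 1010 CPM in Nell2-KO and 1010 to 1080 CPM in WT, with a median log2 fold change of 0.24. Of 6 tested macrophage and dendritic cell markers 1 fell, with sums of 80.3 to 122 CPM in Nell2-KO and 124 to 153 CPM in WT. Germ cell markers gave 0 calls by edgeR among 5 tested, with overlapping sums of 92.8 to 224 CPM in Nell2-KO and 97.8 to 174 CPM in WT. The part of these shifts in the change of Azin1, and in those of Slc7a1, Slc7a2, Oat, Atp13a4 and Slc3a2 given further on, was not tested.

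Of the 8 polyamine genes with enough reads to be tested, 1 was called lower and 0 higher. Among all genes tested, 8.71% were called lower and 6.24% higher in the same comparison, so that the share of polyamine genes called does not set them apart. The groups were fully separate for 1 of the 8, against 22.1% of all genes. The median log2 fold change of the 8 was -0.07, against 0.03 over all genes tested. At an unadjusted p under 0.05 there was 1 of the 8, again Azin1. DESeq2 also called 0 higher and Azin1 lower, while limma-voom with sample weights called Smox higher and Azin1 and Srm lower. Summed, the 10 genes came to 420 to 521 CPM in Nell2-KO and 567 to 619 CPM in WT, without overlap, and Azin1 made up most of that difference in means.

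**Figure D2:**
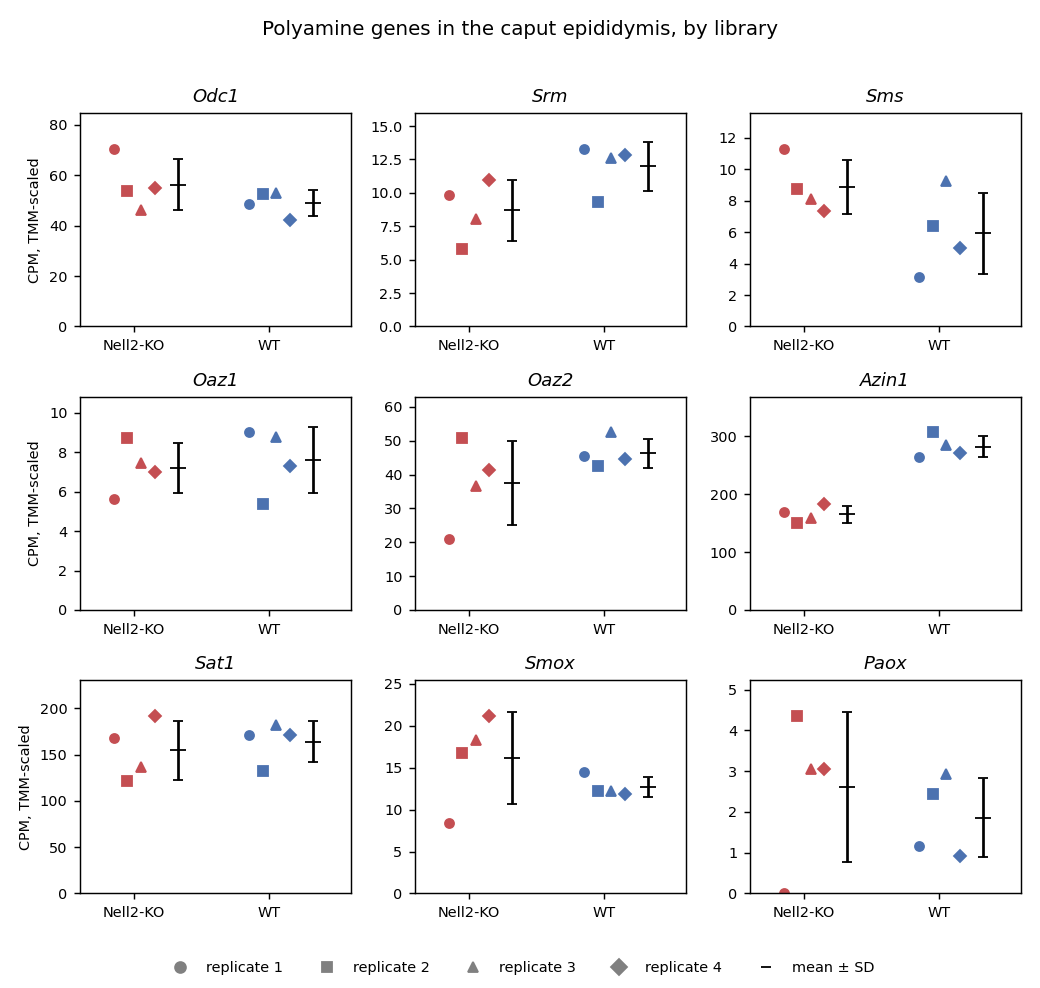
Level of the 9 polyamine genes with reads in each library (CPM, TMM-scaled, linear axes from 0), Nell2-KO left of WT, with marker shapes for the replicate number and bars for the mean ± SD. Azin1 is the gene whose groups do not overlap (150 to 183 CPM in Nell2-KO and 265 to 307 CPM in WT).

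Odc1 (chromosome 12, 17544794 to 17551505, plus strand), the first enzyme of the pathway and the protein that Azin1 protects, was at 70.4, 53.8, 46.0 and 54.8 CPM in Nell2-KO replicates 1 to 4 and at 48.6, 52.4, 53.0 and 42.0 CPM in WT replicates 1 to 4. The groups overlapped, and the highest value was that of Nell2-KO replicate 1. The log2 fold change was 0.16 ± 0.16 (SE, edgeR adjusted p = 0.576), with a 95% interval from -0.19 to 0.52, which allows up to a 1.43-fold rise. Without Nell2-KO replicate 1 the mean of the other 3 Nell2-KO libraries was 51.5 ± 4.80 CPM, against 49.0 ± 5.08 CPM in WT.

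The aminopropyl transferases were measured from few reads. Srm was at 9.86, 5.81, 8.08 and 11 CPM in Nell2-KO replicates 1 to 4 and at 13.3, 9.30, 12.6 and 12.8 CPM in WT replicates 1 to 4. All WT libraries other than replicate 2 lay above every Nell2-KO library. The log2 fold change of Srm was -0.43 ± 0.23 (SE, edgeR adjusted p = 0.268, 95% interval -0.95 to 0.08), and limma-voom with sample weights called it lower (-0.59, adjusted p = 0.0202).

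Sms was at 11.3, 8.72, 8.08 and 7.36 CPM in Nell2-KO replicates 1 to 4 and at 3.13, 6.37, 9.24 and 5.02 CPM in WT replicates 1 to 4, from 114 reads in Nell2-KO and 51 in WT. One WT library, replicate 3, reached into the Nell2-KO range. The log2 fold change of Sms was 0.50 ± 0.31 (SE, edgeR adjusted p = 0.341, 95% interval -0.17 to 1.17). Leaving out WT replicate 1 gave 0.28, and leaving out WT replicate 3 gave 0.80.

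Both antizyme genes lay within the spread between libraries. Oaz1 ranged from 5.63 to 8.72 CPM in Nell2-KO and from 5.39 to 9.01 CPM in WT, a log2 difference of -0.06 ± 0.24 (SE, edgeR adjusted p = 0.908, 95% interval -0.58 to 0.46). Oaz2 had 21.1 CPM in Nell2-KO replicate 1, its lowest library, and 50.9, 36.7 and 41.3 CPM in replicates 2 to 4, against 42.6 to 52.5 CPM in WT. The log2 fold change of Oaz2 was -0.26 ± 0.20 with all libraries (SE, edgeR adjusted p = 0.464) and -0.14 ± 0.14 without Nell2-KO replicate 1 (SE, edgeR adjusted p = 0.511). RNA counts do not read the frameshift through which antizyme protein is controlled.

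Among the genes of polyamine breakdown, Sat1 was at 168, 121, 137 and 192 CPM in Nell2-KO replicates 1 to 4 and at 171, 132, 182 and 171 CPM in WT replicates 1 to 4. The WT range lay within the Nell2-KO range, and the log2 fold change was -0.08 ± 0.17 (SE, edgeR adjusted p = 0.811, 95% interval -0.46 to 0.29).

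The call of Smox (chromosome 2, 131491496 to 131525922, plus strand) depended on 1 library. Its level was 8.45 CPM in Nell2-KO replicate 1, from 6 reads, and 16.7, 18.3 and 21.2 CPM in replicates 2 to 4, against 14.5, 12.2, 12.2 and 11.9 CPM in WT replicates 1 to 4. Replicates 2 to 4 of Nell2-KO thus lay above all WT libraries, and replicate 1 below them. With all libraries the log2 fold change was 0.48 ± 0.22 (SE, edgeR adjusted p = 0.202, 95% interval -0.02 to 0.97). Without Nell2-KO replicate 1, Smox averaged 18.7 ± 2.28 CPM in Nell2-KO (SD, n = 3) and 12.7 ± 1.21 CPM in WT (SD, n = 4), and was called higher, by 1.51-fold (log2 0.60 ± 0.18, edgeR adjusted p = 0.0201). In that fit 11.5% of 11279 genes were called higher and 13.2% lower.

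Paox had 43 reads over the Nell2-KO libraries and 16 over the WT libraries, and did not pass the expression filter. Its level was 0, 4.36, 3.05 and 3.05 CPM in Nell2-KO replicates 1 to 4 and 1.17, 2.45, 2.92 and 0.912 CPM in WT replicates 1 to 4. With no filter its log2 fold change was 0.70 ± 0.52 (SE, edgeR adjusted p = 0.478).

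**Figure D3:**
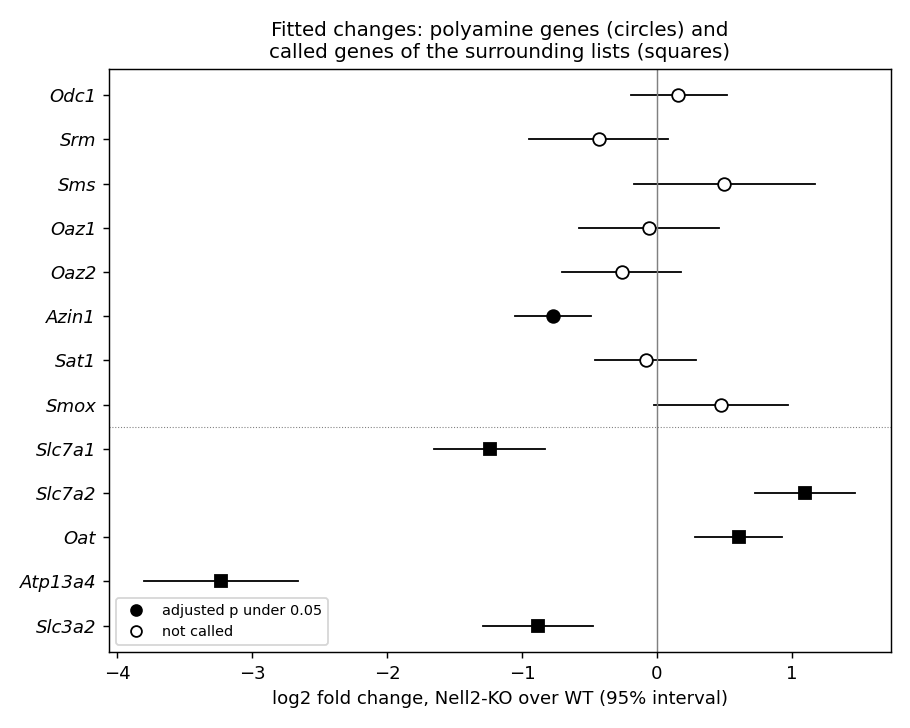
Log2 fold change of Nell2-KO over WT with its 95% interval for the 8 polyamine genes tested (circles) and the 5 called genes of the surrounding lists (squares), filled where the edgeR adjusted p was under 0.05. Azin1 (-0.77) is the filled circle, and the intervals of the other 7 polyamine genes include 0.

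Per length, in the RPKM the authors deposited, the order of the genes was much the same in all libraries. Sat1 had the highest level of the 9 genes with reads in each of the 8 libraries, at 76.7 ± 29.3 RPKM in Nell2-KO and 91.4 ± 18.0 RPKM in WT (SD, n = 4 each). Azin1 came second in each of them, at 18.4 ± 6.39 RPKM in Nell2-KO and 34.5 ± 1.04 RPKM in WT. Oaz2 and Odc1 shared ranks 3 and 4. The level of Oaz2 was 12.3 ± 6.49 RPKM in Nell2-KO and 15.5 ± 2.21 RPKM in WT, and that of Odc1 was 11.9 ± 3.06 RPKM in Nell2-KO and 11.8 ± 1.14 RPKM in WT. Oaz2 exceeded Odc1 in every library but Nell2-KO replicate 1, and the difference between the genes was not tested.

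Smox, Oaz1 and Srm shared ranks 5 to 7, with means between 3.58 and 4.35 RPKM in Nell2-KO and between 3.47 and 5.63 RPKM in WT. Sms and Paox took ranks 8 and 9 in every library, at 1.41 ± 0.355 and 0.994 ± 0.704 RPKM in Nell2-KO and at 1.08 ± 0.473 and 0.652 ± 0.331 RPKM in WT. The RPKM summed to 130900 in Nell2-KO replicate 1 and to between 276600 and 289600 in the other 3 Nell2-KO libraries. The low rank of Oaz1 and Sms stands beside the large shared part of their sequence given above, whose effect on their levels was not tested.

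Ratios within a library do not depend on scaling between libraries, and 4 were formed from the counts with 0.5 added to each. Azin1 over Oaz1, the inhibitor over the antizyme, was 26.8, 16.5, 21.1 and 25.8 in Nell2-KO replicates 1 to 4 and 28.9, 54.5, 31.7 and 36.2 in WT replicates 1 to 4. With 0.5 added the groups did not overlap, and the log2 ratio was lower in Nell2-KO by a difference of -0.73. Nell2-KO replicate 1 held 120 reads of Azin1 and 4 of Oaz1, and WT replicate 1 held 678 and 23. Without the added 0.5, Nell2-KO replicate 1 lay above WT replicate 1, so that the groups overlapped. The difference was then -0.71 (exact permutation test, adjusted p = 0.171). With 0.5 added, the exact two-sided permutation p was 0.0286, the smallest that 4 against 4 libraries allow. Benjamini-Hochberg adjustment over the 4 ratios made it 0.114. At the smallest p, 1 ratio alone cannot get under 0.05 after that adjustment. The adjusted p therefore cannot decide whether this ratio differs.

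Sms over Srm was 1.13, 1.47, 1.00 and 0.675 in Nell2-KO replicates 1 to 4 and 0.246, 0.692, 0.736 and 0.404 in WT replicates 1 to 4. Nell2-KO replicate 4 fell within the WT range, and the other 3 lay above it. The difference in log2 ratio was 1.12 (exact permutation p = 0.0857, adjusted p = 0.171). The differences were 0.24 for Odc1 over Oaz1 (exact permutation p = 0.429, adjusted p = 0.429) and -0.29 for Sat1 over Odc1 (exact permutation p = 0.2, adjusted p = 0.267), with overlapping groups in both. Odc1 over Oaz1 differed by 0.04 without Nell2-KO replicate 1 and by 0.42 without WT replicate 2, and Sat1 over Odc1 by -0.19 without Nell2-KO replicate 2 or WT replicate 4.

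**Figure D4:**
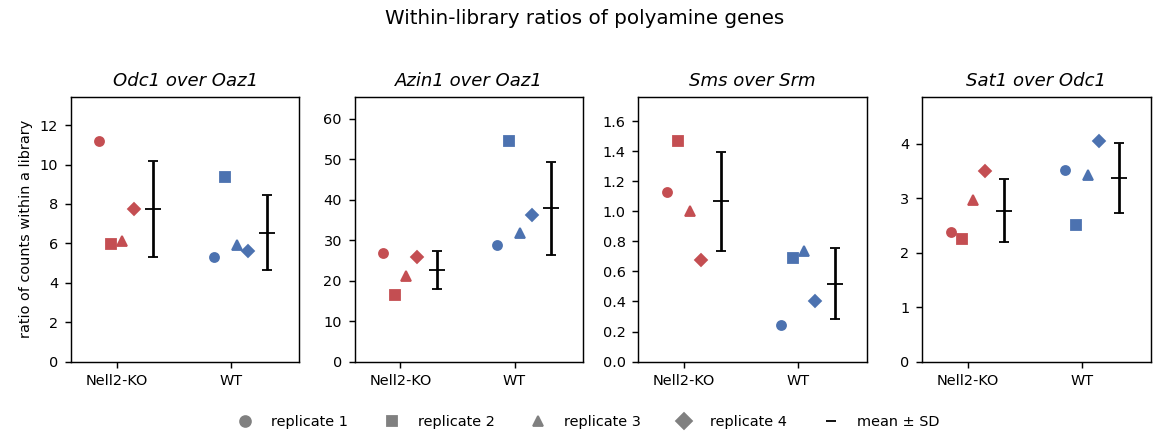
Ratios of counts (0.5 added to each) within each library for 4 pairs of polyamine genes, Nell2-KO left of WT, with marker shapes for the replicate number and bars for the mean ± SD of the ratios. For Azin1 over Oaz1 the Nell2-KO libraries (16.5 to 26.8) lie below the WT libraries (28.9 to 54.5), and the other 3 ratios overlap.

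Around the pathway, 30 genes of 6 lists were tested, of which 2 rose and 3 fell, and without Nell2-KO replicate 1 the numbers were 5 higher and 4 lower. With all libraries these shares are near those of all genes, 6.24% higher and 8.71% lower, and without that library 11.5% of all genes were higher and 13.2% lower. Limma on the RPKM without scaling between libraries called 0 higher and 2 lower, Slc7a1 and Atp13a4. Arginine and ornithine supply held 3 of the 5 genes called by edgeR, and its transporters moved in opposite directions. Slc7a1, a plasma membrane carrier of cationic amino acids including arginine, was at 93.0, 76.3, 91.0 and 140 CPM in Nell2-KO replicates 1 to 4, against 223, 272, 247 and 216 CPM in WT replicates 1 to 4. It fell to 0.423 of the WT level (log2 -1.24 ± 0.19, edgeR adjusted p = 0.000717).

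Slc7a2, another carrier of the same family, was at 42.3, 30.5, 43.4 and 41.9 CPM in Nell2-KO replicates 1 to 4, against 20.4, 16.6, 19.9 and 17.3 CPM in WT replicates 1 to 4. It rose 2.14-fold (log2 1.10 ± 0.17, edgeR adjusted p = 0.00081). The groups did not overlap for either carrier, and both calls held without any single library (highest edgeR adjusted p = 0.00443 for Slc7a1 and 0.00551 for Slc7a2). The transcript of Slc7a2 is overlapped by the antisense gene Gm26584.

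Oat, the mitochondrial ornithine aminotransferase, rose 1.52-fold, to 295 ± 33.9 CPM in Nell2-KO against 194 ± 28.0 CPM in WT (SD, n = 4 each, edgeR adjusted p = 0.0167). Its call ended without Nell2-KO replicate 2 (edgeR adjusted p = 0.0539), Nell2-KO replicate 3 (edgeR adjusted p = 0.0608) or WT replicate 3 (edgeR adjusted p = 0.0527). Uncalled among the 6 supply genes tested were Arg2, an arginase, Asl, which makes arginine, and Slc25a15, the mitochondrial ornithine carrier. The log2 fold change of Asl was 0.63 ± 0.22 (SE, edgeR adjusted p = 0.0843), and it was called higher without Nell2-KO replicate 1 (edgeR adjusted p = 0.00215). Slc25a15 went the other way, by -0.54 ± 0.20 (SE, edgeR adjusted p = 0.0958). It was at 12.7 to 19.2 CPM in Nell2-KO and 19.6 to 31.5 CPM in WT. Limma-voom with sample weights called Asl higher and Slc25a15 lower.

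Of 5 transport genes tested, 2 fell and 0 rose, against 8.71% and 6.24% of all genes tested. Atp13a4, a transport ATPase of the same family as the polyamine transporters Atp13a2 and Atp13a3, was at 1.41, 2.91, 4.42 and 7.72 CPM in Nell2-KO replicates 1 to 4, against 52.1, 49.0, 47.2 and 47.9 CPM in WT replicates 1 to 4. It was 9.38-fold lower (log2 -3.23 ± 0.26, edgeR adjusted p = 3.84e-06), with no overlap between the groups. Atp13a3 was at 146 ± 26.2 CPM in Nell2-KO and 130 ± 10.9 CPM in WT (SD, n = 4 each, edgeR adjusted p = 0.555).

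Slc3a2, the shared heavy chain of several amino acid exchangers, was at 193, 311, 380 and 346 CPM in Nell2-KO replicates 1 to 4, against 581, 577, 564 and 562 CPM in WT replicates 1 to 4. It fell to 0.543 of the WT level (log2 -0.88 ± 0.19, edgeR adjusted p = 0.00693). Without Nell2-KO replicate 1, its lowest library, the log2 fold change was -0.71 ± 0.10. For Slc18b1, a vesicular polyamine carrier, the log2 fold change was -0.79 ± 0.26 (SE, edgeR adjusted p = 0.0602), and without Nell2-KO replicate 1, at 22.5 CPM against 10.2 to 12.2 CPM in the other 3, it was called lower (edgeR adjusted p = 0.00285).

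**Figure D5:**
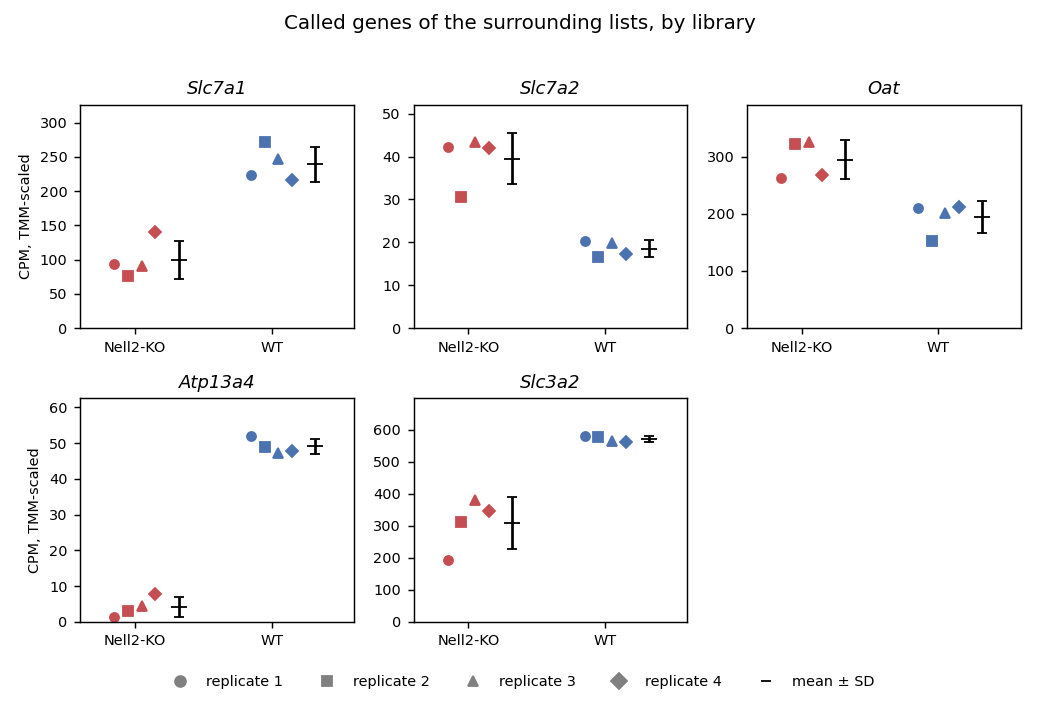
Level of the 5 called genes of the surrounding lists in each library (CPM, TMM-scaled, linear axes from 0), Nell2-KO left of WT, with marker shapes for the replicate number and bars for the mean ± SD. None of the 5, which were picked by their calls on these values, overlaps between genotypes, and neither do 22.1% of all genes tested. Atp13a4 shows the widest gap relative to its level (1.41 to 7.72 CPM in Nell2-KO and 47.2 to 52.1 CPM in WT).

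Among 2 transcription factors known to act on Odc1 that were tested, edgeR and DESeq2 called 0, with 1 at an unadjusted p under 0.05 in edgeR, and limma-voom with sample weights called Mycn higher. Mycn, of the Myc family that activates Odc1, differed by 1.13 ± 0.40 on the log2 scale (SE, edgeR adjusted p = 0.0829), and was called higher without Nell2-KO replicate 1 (edgeR adjusted p = 0.0372). It was measured from 131 reads in Nell2-KO and 36 in WT, with 1 read (0.49 CPM) in WT replicate 2.

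Among the genes of S-adenosylmethionine supply and methionine salvage, edgeR and DESeq2 called 0, and edgeR gave 0 of 11 an unadjusted p under 0.05, while limma-voom with sample weights called 1, Adi1 of the salvage pathway. Among 4 genes of hypusine synthesis, the modification of Eif5a that uses spermidine, edgeR and DESeq2 called 0, with 1 at an unadjusted p under 0.05, and limma-voom called 1, both Eif5a2. The summed level of the first list was 1410 to 1460 CPM in Nell2-KO and 1310 to 1370 CPM in WT, without overlap. Mat2a, the S-adenosylmethionine synthetase, was at 652 ± 24.0 CPM in Nell2-KO and 575 ± 16.5 CPM in WT (SD, n = 4 each, edgeR adjusted p = 0.387, log2 0.18 with a 95% interval of -0.08 to 0.45). Its groups did not overlap. Ahcyl1 also had no overlap and went the other way, at 280 to 309 CPM in Nell2-KO and 313 to 333 CPM in WT (edgeR adjusted p = 0.561). The groups were thus separate for 2 of the 11 genes of this list, against 22.1% of all genes tested. Eif5a2, another gene of the hypusine-bearing factor, differed by 0.56 ± 0.19 on the log2 scale (SE, edgeR adjusted p = 0.0717, and 0.0374 without Nell2-KO replicate 1). Of the other enzymes and regulators of polyamines, the antizyme gene Oaz3, known from haploid germ cells, and Sat2, a relative of Sat1, were tested and not called by edgeR, DESeq2 or limma-voom, with 0 at an unadjusted p under 0.05 in edgeR and Oaz3 at 12.2 ± 3.50 CPM in Nell2-KO and 13.7 ± 5.39 CPM in WT (SD, n = 4 each).

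With numbered gene models, small RNAs and the other polyamine genes left out, the profiles closest to Azin1 over the 8 libraries were those of Smap2 and Stau1. Profiles were centred over both genotypes together, so a like fold change enters the closeness (log2 -0.72 for Smap2 and -0.78 for Stau1). The mean absolute difference of their centred log2 CPM from that of Azin1 was 0.046 for Smap2 and 0.047 for Stau1. Smap2 encodes a GTPase-activating protein of vesicle traffic and was at 21.5 ± 2.48 CPM in Nell2-KO and 35.8 ± 3.05 CPM in WT (SD, n = 4 each). Stau1 encodes an RNA-binding protein and was at 104 ± 6.67 CPM in Nell2-KO and 179 ± 7.96 CPM in WT (SD, n = 4 each).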

How the data were processed

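Per the file headers, the deposited table holds raw counts and RPKM for each gene symbol in 8 libraries. CASAVA 1.8.2, FastQC 0.11.2 and Bowtie2 2.2.0, with the build mm10, come from the submitters' processing notes. Per the labels' protocols, RNA was amplified in a linear round and read as single 36-base reads from stranded libraries. The sources used here do not give the counting tool, annotation or strand setting.

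The counts went into edgeR 4.0.16 under R 4.3.3 (TMM scaling, default filter, robust quasi-likelihood F test of genotype), adjusted by Benjamini-Hochberg over 11062 genes and called at an adjusted p under 0.05. Alternatives used limma 3.58.1, DESeq2 1.42.0, other scalings, no filter and fewer libraries. CPM are counts over totals times TMM factors, and a ± beside a log2 fold change is its SE. On simulated counts for 10890 genes, edgeR recovered 72% of 2-fold and 98% of 4-fold changes, with 17 false calls among 187. Changes were simulated only in genes above a minimum mean CPM. Sms, Oaz1 and Paox lie below it, so these rates do not cover them. Changes smaller than 2-fold were not simulated. Nor were deviations shared by many genes of 1 library, such as those of Nell2-KO replicate 1, so the rates do not cover these either.

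Within groups, counts of library pairs differed beyond sampling noise (chi-square per degree of freedom 1.27 to 16.1). Upper limits for zero counts cover counting error only, while 95% intervals of fold changes come from the edgeR fit and include the spread between libraries. Transcripts, positions and sharing come from GENCODE M21, and 2 list symbols were matched through RefSeq synonyms. The polyamine genes and lists were chosen with earlier results of these data known. The rule named these genes, up to 4 called genes per surrounding list and the 2 closest profiles to each called polyamine gene. Numbered gene models and small RNAs were left out of the search for profiles. Asl, Slc25a15, Arg2, Slc18b1, Atp13a3, Mycn, Mat2a, Ahcyl1, Adi1, Eif5a2, Oaz3, Sat2, Malat1, Gpx5, Actg2, Dcn and Pdgfra fall outside it, and their values were known when they were picked. One gene was taken out of the lists and their counts and is not reported here.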

Additional observations from a re-analysis of the deposited data

Results flagged for a closer look

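Smox in WT replicate 1, at 14.5 CPM, lay far from the other 3 WT libraries, which were at 11.9 to 12.2 CPM. Its gap to the nearest of them was 0.885 of the range of the group. This was the only such value in 18 groups of 4 libraries examined, and chance gives about 1 in 20.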

How the results depend on the processing

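Azin1 was lower in Nell2-KO under all 17 alternatives, with log2 fold changes from -0.95 to -0.72, and lost its call under 1 of them, limma on log2(RPKM + 1) without scaling between libraries (-0.95, adjusted p = 0.111). With those RPKM scaled by TMM, an alternative chosen after seeing the data, it was called (-0.75, limma adjusted p = 0.00223). Limma on unscaled RPKM called 58 genes higher and 472 lower over all, 0 polyamine genes lower, and 0 higher and 2 lower genes of the surrounding lists, and gave Odc1 as -0.03, while the median log2 fold change of all genes was -0.16. It called Slc7a1 and Atp13a4, and not Slc7a2, Oat or Slc3a2. With voom and sample weights 1596 genes were higher and 1863 lower, 1 polyamine gene higher (Smox) and 2 lower (Azin1 and Srm), and 6 surrounding genes higher and 5 lower. Without Nell2-KO replicate 1 and WT replicate 2 together, these numbers were 1391 and 1694 genes, 1 polyamine gene higher (Smox) and 5 surrounding genes higher and 5 lower. Leaving out single libraries gave 443 (without WT replicate 1) to 1301 genes higher and 748 to 1485 lower, both highest without Nell2-KO replicate 1, with 456 higher without WT replicate 3, 0 to 1 polyamine genes higher and 1 lower, and 1 to 5 surrounding genes higher and 3 to 4 lower. The direction of Sat1 turned without Nell2-KO replicate 2 (range over single libraries left out -0.22 to 0.02), and that of Oaz1 without WT replicate 1 or 3 (range -0.19 to 0.04) and with upper-quartile scaling (0.00). None of these values was called.

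The labels do not say whether the replicate numbers pair the libraries. Deviations of same-numbered libraries of the genotypes had correlations of -0.28, -0.17, 0.17 and 0.16 for replicates 1 to 4. The highest correlations of the same Nell2-KO libraries with any WT library were 0.41, 0.15, 0.23 and 0.22. So few values cannot decide whether the numbers pair them. With a replicate block 436 genes were called higher and 1 surrounding gene was called higher, since Oat (edgeR adjusted p = 0.0716) was not called. Without single libraries the log2 ratio differences ranged from -0.84 to -0.54 for Azin1 over Oaz1, 0.80 to 1.33 for Sms over Srm, 0.04 to 0.42 for Odc1 over Oaz1 and -0.42 to -0.19 for Sat1 over Odc1, with no adjusted p of the exact permutation tests under 0.114. For 1 ratio alone at the smallest p, 0.114 is the lowest adjusted p these tests can give. Sign flips over 4 pairs cannot give a p under 0.05. Depth limits Srm, Sms, Oaz1 and Paox most.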
